A study of Osmanthus fragrans with 6 samples.

Results

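A group of 93 transcripts, out of 96596 in the assembly, stood higher at the initial bloom of the second flowering round than in any of 4 later-stage libraries, in petals of the repeat-flowering sweet osmanthus (Osmanthus fragrans var. semperflorens). They were chosen by measured values. A transcript belonged to the group when its level at initial bloom of round 2 was at least 10 CPM (counts per 1000000 counts of its library) and at least 4 times its level in each of 4 other libraries. Of 11652 transcripts with at least 10 CPM at that stage, 93 (0.798%) met the rule. Each single demand was met by more of those 11652: initial 2 was at least 4 times full 1 in 1.88% of them, late full 1 in 7.07%, abscission 1 in 12.2% and full 2 in 6.02%. The values behind the choice are given as a description, and nothing is read from these shares.

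Petals of trees growing outdoors under natural conditions were collected in September and their messenger RNA was sequenced. Round 1 gave 1 library each at the initial stage (initial 1), full bloom (full 1), late full bloom (late full 1) and abscission (abscission 1), and round 2 gave 1 library each at the initial stage (initial 2) and full bloom (full 2). No treatment was applied, and the variety was the same in all 6 groups. Each library pooled 5 replicates, so no spread between flowers or trees was measured and no difference has a replicate check. No p-value is given, intervals cover counting error only, and "rose" and "fell" mean a change of at least 2-fold between 2 libraries.

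Petal opening rests largely on the expansion of cells already formed, which needs water uptake, wall loosening and new wall and membrane material. After opening, petals of sweet osmanthus hold carotenoid pigments and give off scent made in part from the same isoprenoid precursors. Ageing then brings the breakdown of cell contents, and abscission the parting of a layer of cells at the base of the flower. The table pairs its transcript IDs with no gene names, so transcripts are named by ID and the petal label could not be checked against marker genes. Transcript lengths were not used here, so an order of transcripts by CPM is an order of counts and not of molecules.

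The libraries differed greatly in depth. The 5 deep libraries held 17826689 to 39119103 counts, the most of them in initial 2, while initial 1 held 107466. A single count stood for 9.31 CPM in initial 1 and for at most 0.0561 CPM in the deep libraries. The rule used the 5 deep libraries and left out initial 1, which makes initial 1 the one library whose values did not enter the choice. With so few counts there, only the 40 transcripts above 27.9 CPM in initial 2 were expected above 3 counts in initial 1, and the other 53 were examined as a sum.

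By CPM over all 6 libraries, 71 of the 93 were highest in initial 2 and 22 in initial 1, where 1 count weighs heavily. The rule put initial 2 above the other deep libraries, so only initial 1 could be higher. The same split of all transcripts is not given, and nothing is read from it. In initial 2 the 93 transcripts ran from 10.05 to 991 CPM, with a median of 23.5. Of these, 13 stood at 100 CPM or more, 12 between 50 and 100, 28 between 20 and 50, and 40 below 20. The most abundant of them held 18.7% of the group's counts in initial 2, and the 10 most abundant held 52.2%. The median level was 3.08 CPM in full 1, 1.54 in late full 1, 2.64 in abscission 1 and 2.18 in full 2. The group was thus low but present after opening. All 93 had counts in full 1, abscission 1 and full 2, and 92 had counts in late full 1. In bulk petal RNA, fewer cells that hold a transcript and less of it per cell cannot be told apart.

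**Figure D1:**
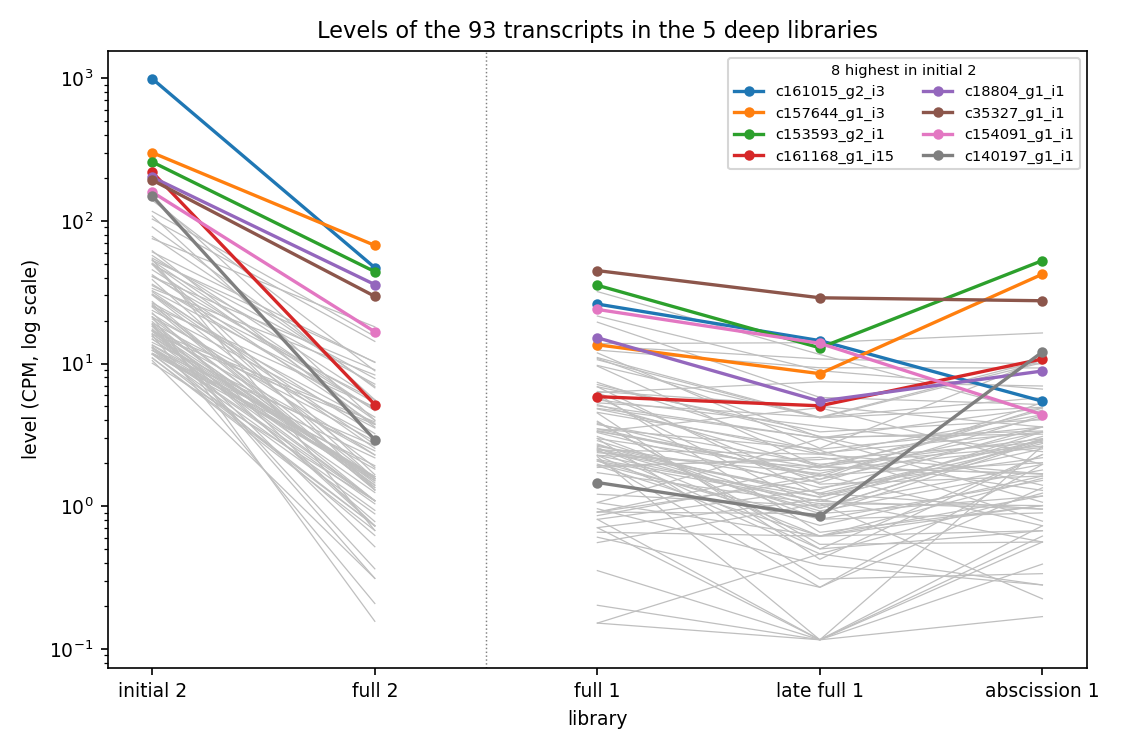
Level of each of the 93 transcripts in the 5 deep libraries, in CPM on a log axis, with levels under 3 counts drawn at 3 counts. Lines join libraries of the same round, and the 8 transcripts highest in initial 2 are coloured. All lines drop from initial 2 to full 2, as the choice of the group requires, and in round 1 many have their lowest point in late full 1.

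Transcript c161015_g2_i3 was the most abundant of the group. It stood at 991 CPM in initial 2, 428 in initial 1, 26.1 in full 1, 14.5 in late full 1, 5.44 in abscission 1 and 47.0 in full 2. Both initial-stage libraries lay above the 4 later ones. Its level in initial 2 was 21.1-fold that in full 2, the next highest deep library (95% interval 19.7 to 22.5).

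Transcript c161168_g1_i15 stood at 219 CPM in initial 2 and 158 in initial 1, against 5.86 in full 1, 5.05 in late full 1, 10.8 in abscission 1 and 5.15 in full 2. Transcript c140197_g1_i1 stood at 149 CPM in initial 2 and 74.4 in initial 1, against 1.46 in full 1, 0.849 in late full 1, 12.1 in abscission 1 and 2.91 in full 2. In both, abscission 1 was the highest of the later libraries. The level of c161168_g1_i15 in initial 2 was 20.3-fold that in abscission 1 (95% interval 17.6 to 23.6), and that of c140197_g1_i1 was 12.4-fold (95% interval 10.8 to 14.3).

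Transcript c157644_g1_i3 stood at 300.5 CPM in initial 2, 121 in initial 1, 13.5 in full 1, 8.49 in late full 1, 42.3 in abscission 1 and 67.3 in full 2. Transcript c153593_g2_i1 stood at 259 CPM in initial 2, 195 in initial 1, 35.4 in full 1, 12.9 in late full 1, 52.7 in abscission 1 and 44.0 in full 2. Both were within 5-fold of their initial 2 level in at least 1 later library. Scaled with TMM factors, which set libraries level on their shared transcripts in place of their totals, these transcripts passed from 4.46-fold to 3.50-fold and from 4.91-fold to 3.15-fold, under the threshold of the rule.

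The other 3 of the 8 most abundant had no rise of 2-fold at abscission. Transcript c35327_g1_i1 stood at 193 CPM in initial 2, 158 in initial 1, 44.8 in full 1, 28.9 in late full 1, 27.5 in abscission 1 and 29.6 in full 2, the steadiest of them after opening. Transcript c154091_g1_i1 stood at 159 CPM in initial 2, 74.4 in initial 1, 23.9 in full 1, 13.9 in late full 1, 4.38 in abscission 1 and 16.7 in full 2. It was lower at each successive stage of round 1. Transcript c18804_g1_i1 stood at 202 CPM in initial 2 but at only 37.2 in initial 1, with 15.2 in full 1, 5.44 in late full 1, 8.86 in abscission 1 and 35.8 in full 2. In this transcript initial 1 lay next to full 2 and far from initial 2.

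The contrast between initial 2 and the later libraries varied widely within the group. The ratio of initial 2 to the highest of the other 4 deep libraries ran from 4.01 to 126, with a median of 5.85. It was under 5 in 29 transcripts, between 5 and 10 in 43, and 10 or more in 21. Transcript c106693_g1_i1 had 831 counts in initial 2 against 3 in full 1, 2 in late full 1, 3 in abscission 1 and 3 in full 2, and 1 count in initial 1. Its ratio to abscission 1 was 126 (95% interval 43.0 to 613). It was thus at 3 counts or fewer in every deep library but initial 2.

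Transcript c153839_g2_i1 had 2097 counts in initial 2, 11 in full 1, 27 in late full 1, 4 in abscission 1, 13 in full 2 and 2 in initial 1. Its level in initial 2 was 51.5-fold that in late full 1 (95% interval 35.3 to 78.3). Transcript c154293_g1_i1 had 410 counts in initial 2 and 4, 0, 7 and 6 counts in full 1, late full 1, abscission 1 and full 2. It had 0 counts in initial 1, where only 1.13 were expected. Transcript c151614_g1_i1 had 732 counts in initial 2, 14, 3, 11 and 14 in the same later libraries, and 3 in initial 1 where 2.01 were expected. Together with c161015_g2_i3, these were the 5 transcripts with the highest ratios once levels under 3 counts were raised to 3 counts.

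The threshold cut through a continuous range. Just inside the 4-fold limit were c148617_g1_i1 at 4.01-fold (12.3 CPM in initial 2) and c153982_g1_i1 at 4.01-fold (18.9 CPM). Just outside were c159066_g2_i4 at 3.99-fold (26.9 CPM) and c158689_g2_i3 at 3.98-fold (92.9 CPM). Just inside the abundance limit were c148380_g1_i2 at 10.05 CPM and c154293_g1_i1 at 10.5 CPM, and just outside were c161601_g1_i1 at 9.84 CPM and c157718_g9_i1 at 9.61 CPM. For 31 of the 93, the lower 95% limit of the ratio lay under 4.

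The course after opening was followed over full 1, late full 1 and abscission 1. The rule set an upper limit on each of these levels but not their order. It set no such limit on transcripts outside the group, which enter the shares given for comparison. At few counts a 2-fold step is reached more readily by counting error, and sets of like level were not compared. Most of the group was lower in late full 1 than in full 1: 80 of 93 transcripts (86.0%, against 71.4% of all transcripts with at least 10 CPM in initial 2), with a median ratio of 0.489. Of the 93, 48 fell at least 2-fold and 3 rose. Among all transcripts with at least 10 CPM in initial 2, 14.1% fell and 4.11% rose over this step, and their median ratio was 0.823. From late full 1 to abscission 1 the group then moved the other way. Of the 93 transcripts, 66 were higher at abscission (31.4% of all were), 35 of them by at least 2-fold, and the median ratio was 1.45, while 9 fell. Over all 11652 transcripts, 5.62% rose and 15.4% fell at this step, with a median ratio of 0.814.

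Both steps together gave 9 courses. A level course, within 2-fold at both steps, was the most frequent with 26 transcripts, against 67.1% of all transcripts with at least 10 CPM in initial 2. A dip, falling to late full 1 and rising to abscission 1, was seen in 23 of the 93 (24.7%), against 1.4% of those transcripts. The rule held the later levels of the 93 low and not those of the other transcripts. A fall to late full 1 with no further step was seen in 22, against 9.45%. A further 11 were level and then rose (3.12% of all), 5 were level and then fell (11.5%) and 3 fell at both steps (3.28%). The last 3 transcripts each had a course of their own: 1 rose and then fell (0.584% of all), 1 rose and was then level (2.42%) and 1 rose at both steps (1.11%).

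Late full 1 was the lowest of the 3 round 1 libraries in 60 transcripts, abscission 1 in 24 and full 1 in 9. Over all 11652 transcripts with at least 10 CPM in initial 2, these shares were 19.98%, 63.3% and 16.7%. The size of the dip depends on how libraries are scaled. TMM raises every ratio of late full 1 to full 1 by 0.21 and of abscission 1 to late full 1 by 0.36 on the log2 scale. With TMM the dip was seen in 22 transcripts and with DESeq2 size factors in 20, against 1.87% and 1.58% of all transcripts with at least 10 CPM in initial 2. Other courses moved more: the level course with a later rise went from 11 to 22 transcripts with either scaling (6.40% and 6.46% of all), and the fall with no further step from 22 to 16 with TMM and 13 with DESeq2 size factors (6.19% and 5.18% of all). The net change from full 1 to abscission 1 had no direction that held. Its median ratio was 0.711 with total counts and 1.05 with TMM, against 0.657 and 0.974 in all transcripts with at least 10 CPM in initial 2.

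**Figure D2:**
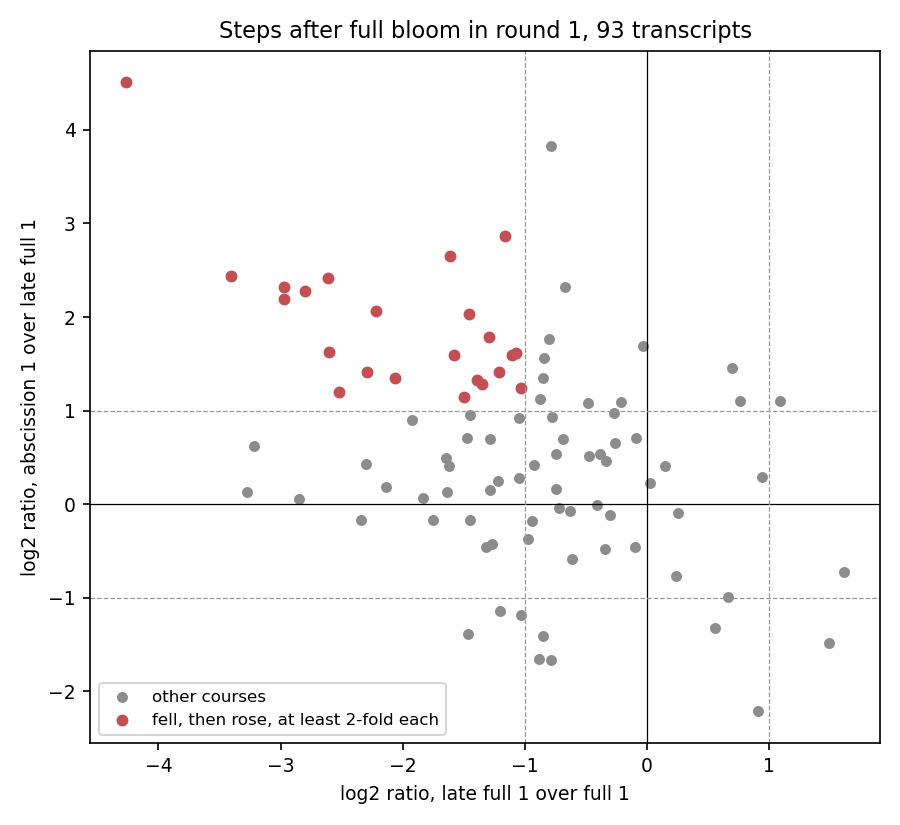
Log2 ratio of late full 1 to full 1 (horizontal) against log2 ratio of abscission 1 to late full 1 (vertical) for the 93 transcripts, with levels under 3 counts raised to 3 counts and dashed lines at 2-fold. The 23 transcripts that fell and then rose lie in the upper left, and 1 transcript rose at both steps.

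Named courses show how the transcripts differed. The dip was led by c153593_g2_i1, whose 35.4 CPM in full 1 became 12.9 in late full 1 and 52.7 in abscission 1. The fall with no further step was led by c18804_g1_i1, the level course by c35327_g1_i1, and the level course with a later rise by c157644_g1_i3, with the values given above. In c140197_g1_i1, also level and then higher, abscission 1 was 14.2-fold late full 1, on 215 and 22 counts. Transcript c161015_g2_i3 led those that were level and then fell.

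Among the transcripts that fell at both steps, c124448_g2_i1 was the most abundant. It stood at 147 CPM in initial 2, 31.9 in full 1, 11.6 in late full 1, 4.43 in abscission 1 and 5.56 in full 2, with 18.6 in initial 1. Transcript c130647_g1_i1 was the one that rose and then fell, at 1.06, 2.97 and 1.07 CPM over the 3 stages, with 57.1 in initial 2, 83.7 in initial 1 and 5.56 in full 2. Transcript c151754_g2_i1 rose at both steps, at 0.909, 1.93 and 4.15 CPM, with 61.6 in initial 2, 46.5 in initial 1 and 3.59 in full 2. Transcript c151754_g1_i1 rose and was then level, on 2, 12 and 5 counts.

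Full bloom was sampled in both rounds, and the group was low in both. Of the 93 transcripts, 61 had levels in full 2 and full 1 within 2-fold of each other, 24 were at least 2-fold lower in full 2 and 8 were at least 2-fold higher. Among all transcripts with at least 10 CPM in initial 2, 15.4% were lower and 6.14% higher. With TMM, 15 of the 93 were at least 2-fold lower in full 2, and the share of all transcripts is not given with that scaling. The median ratio of full 2 to full 1 was 0.735 in the 93 and 0.845 in all with total counts. With TMM these medians were 0.892 and 1.03. The transcripts higher in full 2 included c130647_g1_i1, at 5.56 CPM against 1.06, and c157644_g1_i3, at 67.3 against 13.5. Among the 4 later-stage libraries, the highest level was found in full 1 for 42 transcripts, in abscission 1 for 27, in full 2 for 20 and in late full 1 for 4. The same split of all transcripts is not given, so nothing is read from these counts.

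Initial 1, which had no part in the choice, held more of the group than any later library. The 93 transcripts made up 0.300% of its counts (322 counts, exact 95% binomial interval 0.268% to 0.334%). Their share was 0.529% in initial 2, 0.0555% in full 1, 0.0281% in late full 1, 0.0418% in abscission 1 and 0.0526% in full 2. Their share in initial 1 was 5.40 times that in full 1, and 0.567 of that in initial 2. The low shares of the 4 later libraries and the high share of initial 2 were set by the rule, which did not use initial 1. Transcripts picked for a high level in 1 library and low levels in others tend to lie between these in a library left out. How far the place of initial 1 follows from the choice was not tested.

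**Figure D3:**
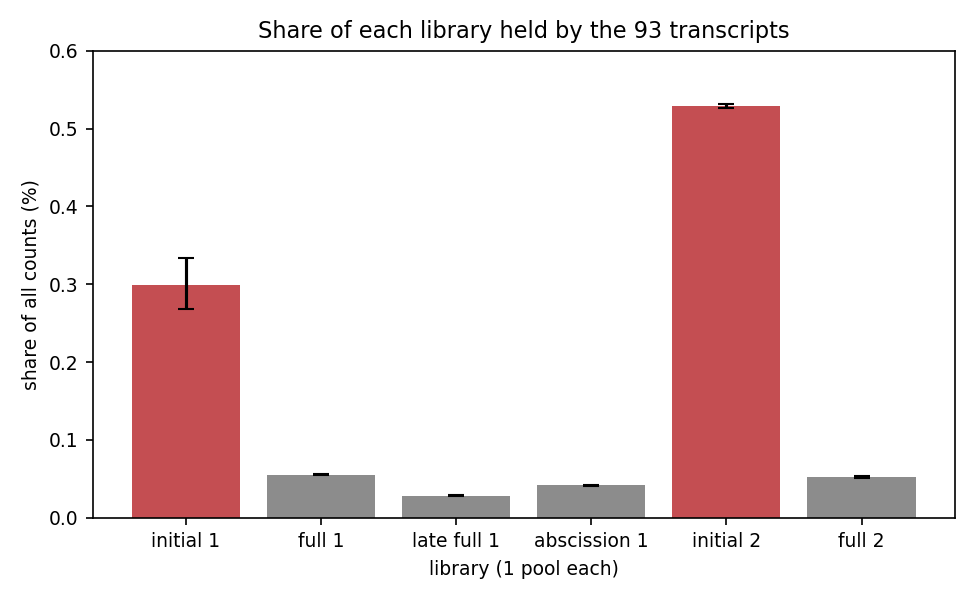
Share of all counts held by the 93 transcripts in each library, in percent, with exact 95% binomial intervals for counting error. The initial-stage libraries (red) stand at 0.300% and 0.529%, and the other 4 (grey) between 0.0281% and 0.0555%.

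The 40 transcripts expected above 3 counts had 257 counts in initial 1. At their level in initial 2 they would have had 472, and at the highest of their 4 later levels 63.6. The sum in initial 1 was therefore 0.545 of that expected from initial 2 (95% interval 0.480 to 0.616) and 5.51 times that expected from full 1 (95% interval 4.85 to 6.22). Over all 6698 transcripts expected above 3 counts, the same ratios were 0.975 and 0.982. These 6698 held 89848 of the 107466 counts of initial 1, so scaling to totals sets their summed ratios near 1. Full 1 was held low by the rule for the 40 and not for transcripts outside the group. The remaining 53 transcripts, too few in counts to be read singly, had 65 counts against 96.4 expected from initial 2, a ratio of 0.674 (95% interval 0.520 to 0.859). Against full 1 these 53 stood at 5.03 times the expected sum (95% interval 3.88 to 6.41).

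Without c161015_g2_i3, which alone gave 46 of the counts, the sum of the other 39 was 0.578 of that expected from initial 2 (95% interval 0.502 to 0.661) and 4.81 times that expected from full 1. Scaling changed the sizes but not this order. With TMM factors, 53 transcripts were expected above 3 counts, and their sum was 0.401 of the level of initial 2, 3.76 times that of full 1 and 2.31 times that of the highest later library. All transcripts expected above 3 counts then stood at 0.720 of the level of initial 2, a value that the scaling largely sets. For the factor of initial 1, neither TMM nor DESeq2 uses transcripts with 0 counts there, and 15286 were detected in it. How far this moved its TMM factor, 1.51, was not tested.

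Transcript by transcript, the support was uneven. In 22 of the 40 (55.0%), the exact 95% interval of the initial 1 level lay wholly above the highest of the 4 later levels, against 9.33% of all transcripts expected above 3 counts. The later levels of the 40 were held low by the rule, which those of the other transcripts were not. With TMM this held for 18 of 53 (34.0%, against 2.75% of all) and with DESeq2 size factors for 17 of 51 (33.3%, against 2.87%). The interval held the initial 2 level in 25 of the 40 (81.2% of all), lay below it in 14 (9.79% of all) and above it in 1 (9.05% of all). It held that level in 25 of 53 (47.2%) with TMM and 25 of 51 (49.0%) with DESeq2 size factors. The share of all is not given for these scalings. At least 1 count was present in 35 of the 40, against 97.3% of all.

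**Figure D4:**
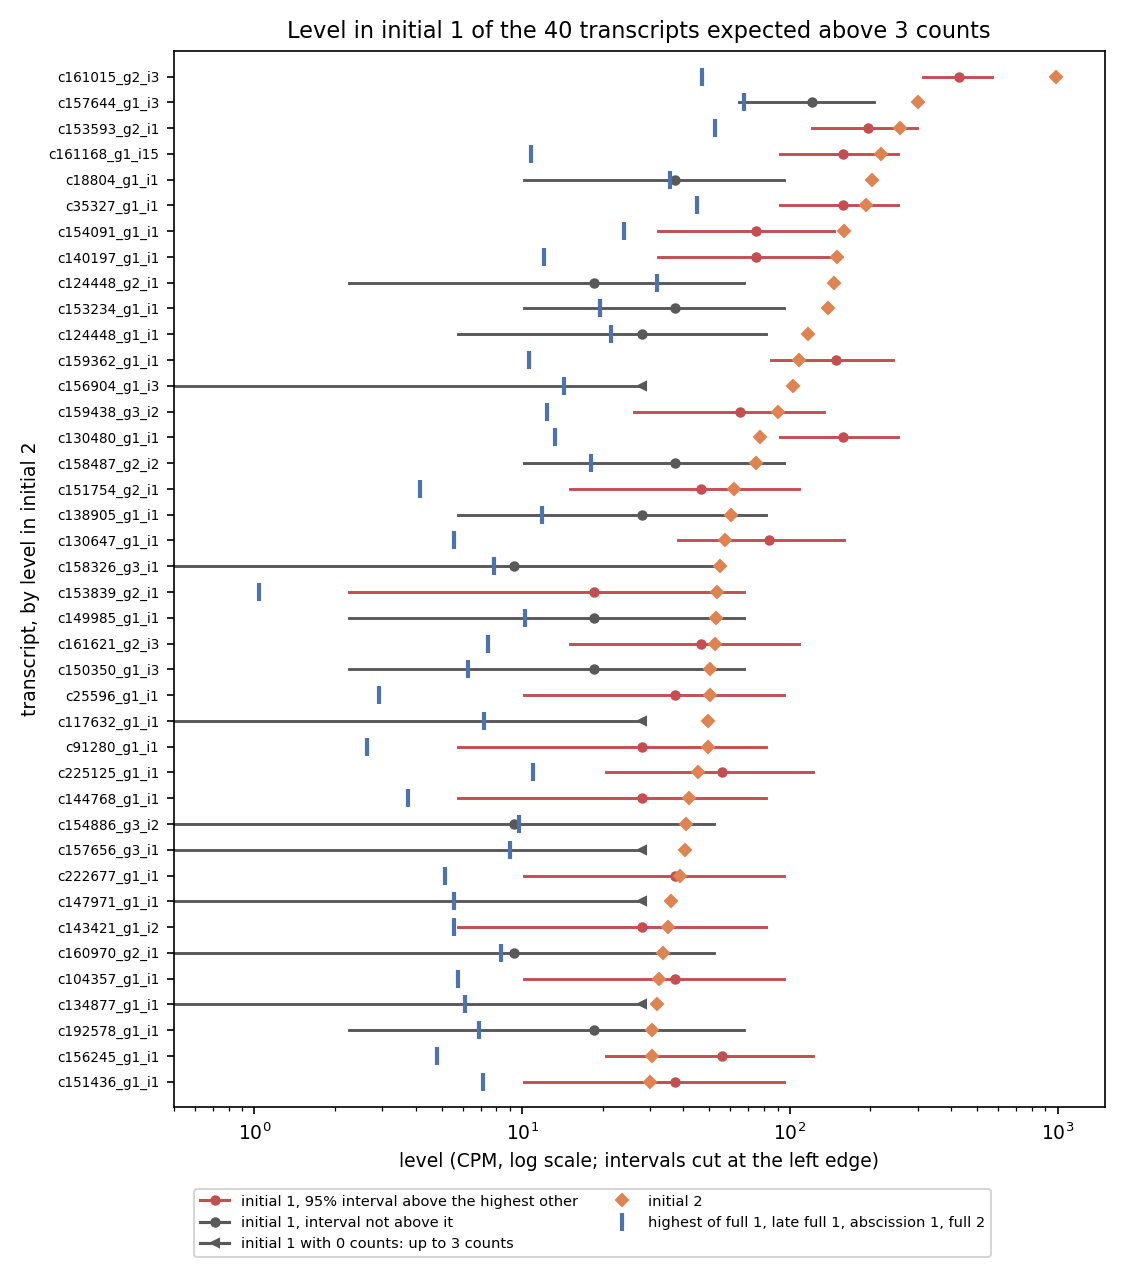
Level in initial 1 with its 95% counting interval for the 40 transcripts expected above 3 counts there, on a log CPM axis, beside the level in initial 2 (diamonds) and the highest of the 4 later libraries (blue ticks). In 22 transcripts (red) the interval clears the blue tick, and in 14 it lies below the diamond.

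These outcomes sort the 40 into 5 sets. In 18, the interval lay above all later levels and held the initial 2 level, as in 291 of all 6698 transcripts expected above 3 counts. In 3 (6 of all 6698), it lay above the later levels and below initial 2. These were c161015_g2_i3, with 46 counts against 106 expected, c154091_g1_i1, with 8 against 17.1, and c140197_g1_i1, with 8 against 16.1. In 1, c130480_g1_i1, the interval lay above both with total counts, as in 328 of all 6698. TMM multiplies every ratio of initial 1 to initial 2 by 0.734. That takes its lower limit, 1.19 times the initial 2 level, under that level. In 11 (650 of all 6698), the interval lay below initial 2 and did not clear the highest later level. Of these 11, 8 cleared no later level, while c157644_g1_i3 and c153234_g1_i1 cleared 3 and c18804_g1_i1 cleared 2. In 7, the interval held both the initial 2 level and the highest later one, so that no difference from either was detectable at this depth. An interval holding the initial 2 level without clearing the highest later one was found in 5145 of all 6698. The rule held the later levels of the 40 low and not those of transcripts outside the group.

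With total counts, the 5 transcripts with the highest ratios of observed to expected counts had measured levels in initial 1 above those in initial 2. Only c130480_g1_i1 had an interval wholly above its initial 2 level. Transcript c130480_g1_i1 had 17 counts in initial 1 against 8.35 expected, or 158 CPM (95% interval 92.2 to 253) against 77.7 in initial 2. It stood at 13.3 CPM in full 1, 10.8 in late full 1, 9.93 in abscission 1 and 6.91 in full 2, so both initial stages lay above all later ones. Transcript c159362_g1_i1 had 16 counts against 11.6 expected, and stood at 149 CPM in initial 1, 108 in initial 2, 10.6 in full 1, 4.17 in late full 1, 10.1 in abscission 1 and 4.005 in full 2. Its counts were not whole numbers in the deep libraries, as estimated counts are when reads are divided between transcripts.

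Transcript c130647_g1_i1 had 9 counts against 6.14 expected, and its 83.7 CPM in initial 1 had an interval of 38.3 to 159. Transcript c156245_g1_i1 had 6 counts against 3.27 expected, with 30.5 CPM in initial 2 and at most 4.80 CPM, in full 1, among the later libraries. Transcript c151436_g1_i1 had 4 counts against 3.24 expected, with 30.1 CPM in initial 2, 7.12 in full 1, 3.09 in late full 1, 1.402 in abscission 1 and 1.87 in full 2. The intervals of these 3 held their initial 2 levels.

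The lowest ratios were those of 5 transcripts with 0 counts in initial 1, which allows a level of up to 27.9 CPM. Transcript c156904_g1_i3 is the clearest, with 11.1 counts expected from its 103 CPM in initial 2. It stood at 10.9 CPM in full 1, 3.05 in late full 1, 3.20 in abscission 1 and 14.3 in full 2. A level in initial 1 like that in initial 2 was thus outside the limit, while one like any later level was inside it. The other 4 were c117632_g1_i1 with 5.32 counts expected, c157656_g3_i1 with 4.36, c147971_g1_i1 with 3.86 and c134877_g1_i1 with 3.42. Their levels in initial 2 were 49.5, 40.6, 35.9 and 31.8 CPM. An exact two-sided interval at 0 counts, an alternative added with the data in view, raised the share of transcripts holding the initial 2 level from 62.5% to 65.0% of the 40.

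Low support in initial 1 was found among abundant transcripts as well. Of the 13 transcripts expected above 10 counts, 9 had an interval below the initial 2 level, and 7 had one above all later levels. Intervals are relatively narrower at higher counts and clear a level more readily. The same shares of all transcripts expected above 10 counts are not given, so this split is not compared with that of less abundant transcripts. Transcript c18804_g1_i1 had 4 counts against 21.8 expected, and its interval of 10.1 to 95.3 CPM took in its levels in full 1 (15.2 CPM) and full 2 (35.8 CPM) but lay above those in late full 1 and abscission 1. Transcript c124448_g2_i1 had 2 counts against 15.8 expected, with an interval of 2.25 to 67.2 CPM around its 31.9 CPM in full 1. In both, on 4 and 2 counts, the initial 1 interval lay below the initial 2 level and did not clear full 1 or full 2. With 1 pool per stage, round, sampling date, the exact point within the initial stage and the shallow initial 1 library itself cannot be told apart.

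The transcript IDs carry a further feature that the rule did not use. Their first part numbers a component, a set of transcripts that the assembly placed together, and the 93 came from 86 components. In 6 components more than 1 transcript belonged to the group, 13 transcripts in all. Transcripts of a component may be close copies or pieces of the same gene, so they are not independent observations. The 3 members of component c91280 had the same course. Transcript c91280_g1_i1 had 1935 counts in initial 2, 44 in full 1, 1 in late full 1, 47 in abscission 1 and 25 in full 2. Transcripts c91280_g2_i1 and c91280_g3_i1, at 15.8 and 11.6 CPM in initial 2, also had 1 count each in late full 1. Summed, the component went from 76.9 CPM in initial 2 to 3.38 in full 1, 0.116 in late full 1, 3.93 in abscission 1 and 2.23 in full 2, with 3 counts in all at late full bloom. In initial 1 it had 3 counts where 8.26 were expected.

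In component c124448, c124448_g1_i1 and c124448_g2_i1 stood at 116 and 147 CPM in initial 2. Both had few counts in initial 1, 5 together where 28.3 were expected. Their sum in initial 1, 46.5 CPM, was under that in full 1, 53.4 CPM. In component c151754, c151754_g2_i1 and c151754_g1_i1 had 2411.36 and 428.64 counts in initial 2, which add to the whole number 2840. Together they had 5 counts in initial 1 against 7.80 expected. Component c158326 had 2 counts against 7.16 expected, c141919 had 0 against 3.74 and c142407 had 1 against 3.38.

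The same components held 98 other transcripts, of which 25 reached 10 CPM in initial 2. Of these 25, 12 (48.0%) were highest in initial 2 among the deep libraries, against 39.3% of all transcripts with at least 10 CPM there. Some of these components thus held transcripts with another course. In c151754, the third gene, c151754_g3_i1, stood at 19.2 CPM in initial 2, 19.5 in full 1, 9.45 in late full 1, 3.98 in abscission 1 and 14.8 in full 2. In c158326, c158326_g1_i3 stood at 23.3 CPM in initial 2 and 25.0 in full 1. Both were chosen for mention after their values were seen. Counts with decimals occurred in 4 of the 93, and the other 89 had whole counts throughout.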

How the data were processed

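Total RNA of petals was extracted with TRIzol and polyadenylated RNA was sequenced, per the labels' protocols. The submitters' processing notes name CASAVA 1.7, while assembler, aligner, counter and strand setting were not given in the sources used here. The authors deposited estimated counts for assembled transcripts in 6 columns, with no scaling between libraries. Each column name matched 1 sample title, and 0 columns were without a sample. Their values are whole except for 36 to 855 entries in a column, from which the unit was taken. The rule's CPM used unrounded counts and column totals, while TMM (edgeR 4.0.16) and DESeq2 1.42.0 size factors used rounded counts of transcripts reaching 1 CPM in any library, in R 4.3.3.

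The members and lists were chosen with earlier results of these data known. With 1 pooled library per group, no test between groups was made. Intervals are exact, at 95%: Poisson for a count, Clopper-Pearson for shares and pairs of counts. A count of 0 was taken to allow 3 counts. Expected counts in initial 1 are the CPM of another library times the total of initial 1. In courses and medians of ratios, levels under 3 counts were raised to 3. Named transcripts are the 8 highest in initial 2, the 5 with the highest ratio, the 5 highest and 5 lowest of observed over expected counts, the most abundant of each course, and those next to the thresholds. Gene lists could not be applied to IDs without names. Scripts were tested on simulated counts. The other steps ran in Python 3.11.15 with SciPy 1.17.1, NumPy 2.4.6 and pandas 2.3.3, and figures were drawn with matplotlib 3.10.9.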

Additional observations from a re-analysis of the deposited data

How the results depend on the processing

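The rule gave 93 transcripts, of which 64 also passed with TMM factors and 62 with DESeq2 size factors. Other thresholds gave 515 transcripts at 2-fold, 24 at 8-fold, 293 with a minimum of 1 CPM, 25 with a minimum of 50 CPM and 261 with at least 50 counts in place of 10 CPM. Without the demand on full 1 the group held 307, and without that on late full 1, abscission 1 or full 2 it held 98, 122 or 113. Deep libraries thinned to the shallowest of them gave 96, of which 92 were among the 93. In initial 1, the share of transcripts with an interval above all later levels was 34.0% of 53 with TMM and 33.3% of 51 with DESeq2 size factors, in place of 55.0%. The share holding the initial 2 level was 47.2% with TMM, 49.0% with DESeq2 size factors and 30.8% of those expected above 10 counts, in place of 62.5%. The share of all transcripts holding that level is not given for these 3 settings. The summed level was 0.401 of that in initial 2 with TMM and 0.416 with DESeq2 size factors, in place of 0.545. The share that fell from full 1 to late full 1 was 51.6%, or 36.6% with DESeq2 size factors, 72.04% with 1.5-fold steps and 25.8% with 3-fold steps. Of all transcripts with at least 10 CPM in initial 2, 14.1% fell with total counts and 7.93% with DESeq2 size factors. The share that rose from late full 1 to abscission 1 was 37.6%, or 48.4% with either TMM or DESeq2 size factors, 49.5% with 1.5-fold and 20.4% with 3-fold steps. Of all those transcripts, 5.62% rose with total counts, 10.2% with TMM and 10.1% with DESeq2 size factors. For both steps the share of all is not given at 1.5-fold or 3-fold. The share lower in full 2 than in full 1 was 25.8%, or 16.1% with TMM, 15.1% with DESeq2 size factors, 44.1% with 1.5-fold and 11.8% with 3-fold steps. For this comparison the share of all transcripts is given only with total counts and 2-fold steps. Of 28 named transcripts of the group, 5 fell under 4-fold with TMM. No paired analysis was possible because each group is 1 library. Depth limits every statement on single transcripts in initial 1.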

Other observations

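A further 247 transcripts outside the group were at least 4-fold higher in initial 2 than in full 2, with at least 10 CPM in initial 2 and more than 3 counts expected in initial 1. They had 1.07 times the counts in initial 1 expected from initial 2 (95% interval 1.03 to 1.12), against 0.545 for the 40 transcripts of the group. Relative to full 1 they stood at 1.89 times the expected counts (95% interval 1.82 to 1.97), against 5.51 for the group. The group was chosen with full 1 held low and these transcripts were not, and the difference between the sets was not tested.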
